A study of Mus musculus with 16 samples.

Results

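The genes examined here encode transcription regulators that the deacetylase SIRT1 deacetylates or binds. They are the forkhead factors Foxo1, Foxo3 and Foxo4, the tumour suppressor Trp53, the NF-kB subunit Rela, the coactivators Ppargc1a and Crtc2, the hypoxia factor Hif1a, the oxysterol receptor Nr1h3 and the corepressor Ncor1. Every probe set that the array's probe table assigned to a single symbol of these 10 genes was taken. That gave 22 of the 45037 probe sets on the array, from 8 of the 18193 genes that have such a probe set. Trp53 and Ncor1 are not analysed here. Of the 22 probe sets, 19 were bright enough to be tested, reading at least 4 on the log2 scale in no fewer than 4 arrays. The others, under that level, were Foxo3 1450236_at, Foxo4 1422149_at and Hif1a 1431981_at. Over all arrays Foxo4 1422149_at ran from 2.78 to 3.33 and Hif1a 1431981_at from 2.90 to 4.01.

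SIRT1 removes acetyl groups from proteins and uses NAD, so its activity is tied to the energy state of the cell. Deacetylation changes how its substrates act: it restrains the p65 subunit of NF-kB encoded by Rela, raises the activity of the coactivator PGC-1alpha encoded by Ppargc1a, and redirects forkhead factors toward part of their targets. This control acts on the proteins, whereas the arrays measured the amount of each transcript. In fat, these regulators govern lipid storage and release, mitochondrial content, insulin signalling and inflammation.

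The 16 arrays measured white adipose tissue of C57BL6/J mice in 4 groups of 4. The groups were FABP4-Cre Sirt1 knockout mice fed high fat diet, knockout mice fed low fat diet, mice without a Cre transgene (called wild type) fed high fat diet, and wild type mice fed low fat diet. Diets began at 4 weeks of age and lasted 8 weeks, so tissue was taken at 12 weeks. The labels name neither the fat depot nor whether the 4 arrays of a group came from 4 mice, so p-values reflect only the spread among these samples, which may be technical. The Fabp4 promoter drives Cre in adipocytes and, as is known from other work, also in some other cells. No mice with Cre and an intact Sirt1 gene were among the samples, so effects of the transgene and of the deletion cannot be told apart.

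Values are log2 expression per probe set, and array medians lay between 4.34 and 4.46. Arrays of the same group correlated across all probe sets at 0.987 to 0.996. The adipocyte marker Adipoq read 13.19 to 13.68 on all 16 arrays. Other adipocyte markers were less even, with Pparg at 10.73 to 12.5 and Lep at 11.15 to 13.31. Pparg was highest and Lep lowest in the wild type low fat arrays. Sirt1 had a single probe set, 1418640_at, whose place relative to the deleted part is not known here, so it does not check the genotype labels. It averaged 8.74 ± 0.30 in knockout and 8.97 ± 0.14 in wild type on high fat diet, and 9.24 ± 0.22 in knockout and 9.43 ± 0.35 in wild type on low fat diet (SD, n = 4 each). Sirt1 did not pass the test between genotypes, with an adjusted p of 0.469 on high fat diet and 0.506 on low fat diet. In whole tissue, fewer cells of a type and less RNA per cell cannot be told apart. Other cell types differed between arrays. The summed signal of 10 macrophage markers was 29012 to 32313 in knockout and 21409 to 26882 in wild type on high fat diet, against 19135 to 22505 in knockout and 13854 to 19841 in wild type on low fat diet. Muscle transcripts varied between arrays. The muscle gene Tnnt3 read 8 or more, from 8.20 to 10.5, in 5 arrays, namely replicate 4 of knockout high fat, replicate 2 of knockout low fat, replicate 3 of wild type high fat and replicates 3 and 4 of wild type low fat. In the other arrays it read 3.40 to 7.95, and the highest of these, wild type high fat replicate 4, read 9.13 for the muscle gene Mylpf, so muscle transcripts were also present in arrays below this Tnnt3 level. Wild type high fat replicate 4 carried transcripts of urinary tract lining, such as Upk3a at 11.02.

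Diet was compared in either genotype and genotype on either diet, and the interaction set the diet effect in knockout against that in wild type by subtraction. A probe set was called at an adjusted p under 0.05 (limma, Benjamini-Hochberg over all 25560 probe sets tested). These comparisons share arrays, so their values stand side by side below and are not independent of each other. All differences and group values are on the log2 scale.

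In knockout mice, probe sets of Ppargc1a and Foxo1 were called lower on high fat diet, and Hif1a 1448183_a_at was called higher. The other tested Hif1a probe sets, 1416035_at and 1427418_a_at, averaged slightly lower on high fat diet and were not called. Of the 19 member probe sets, 7 were called, 1 higher and 6 lower, where 27.7% of all tested probe sets were called, 13.9% higher and 13.7% lower. High and low fat arrays did not overlap for 9 of the 19, where this held for 31.4% of all probe sets. The median difference was -0.17 over the members and -0.03 over all tested probe sets. The calls fell on 3 of the 8 genes tested, counting a gene by any of its probe sets, and the lower ones were all probe sets of Ppargc1a or Foxo1. By the brightest probe set of each gene only Ppargc1a and Foxo1 were called, both lower. By that measure 15.2% of all genes were called higher and 13% lower. In the same comparison 6 of 6 mesothelial markers were called lower, with a summed signal of 1143 to 2782 on high fat and 4520 to 6022 on low fat diet, and their part in the member differences was not tested.

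In wild type mice, probe sets of Ppargc1a, Foxo1, Nr1h3 and Crtc2 were called lower on high fat diet, and 2 of Hif1a were called higher. The brightest Hif1a probe set, Crtc2 1424660_s_at and the Foxo1 probe sets other than 1416981_at were not called. Of 19 probe sets, 10 were called, 2 higher and 8 lower, beside 35.4% of all tested probe sets (16.7% higher and 18.7% lower), and arrays did not overlap for 10, beside 30.6%. The median difference was -0.34 over the members and -0.04 over all. The calls fell on 5 of the 8 genes tested, and most of the lower ones were probe sets of Ppargc1a. Of 8 adipocyte markers 1 was called higher and 2 lower.

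Between knockout and wild type on high fat diet 0 member probe sets were called with limma, where 12.5% of all tested probe sets were (7.25% higher and 5.21% lower), and 2 had an unadjusted p under 0.05, of Nr1h3 and Foxo1. Arrays did not overlap for 1 of the 19, that of Nr1h3, beside 23.2% of all probe sets. The median difference was -0.05 over the members and 0.00 over all. On low fat diet, probe sets of Ppargc1a and Crtc2 were called lower in knockout tissue than in wild type. Hif1a 1416035_at was called higher. The other tested Hif1a and Crtc2 probe sets were not called, and Hif1a 1448183_a_at averaged lower in knockout. Of 19 probe sets, 6 were called, 1 higher and 5 lower, beside 18.1% of all tested probe sets (8.95% higher and 9.12% lower), and arrays did not overlap for 5, beside 17.5%. The median difference was -0.27 over the members and -0.01 over all. The calls fell on 3 of the 8 genes tested, and most of the lower ones were probe sets of Ppargc1a.

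The diet effect differed between the genotypes for 3 of the 19 probe sets, of Crtc2, Hif1a and Nr1h3, beside 11.3% of all tested probe sets. It was positive for 2 of them and negative for 1, beside 5.6% and 5.74% of all. All 3 interactions had adjusted p-values between 0.0348 and 0.0436. With an array left out the count was 0 or 1, except without wild type low fat replicate 2 or 4, when it was 4, or knockout low fat replicate 4, when it was 3.

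**Figure D1:**
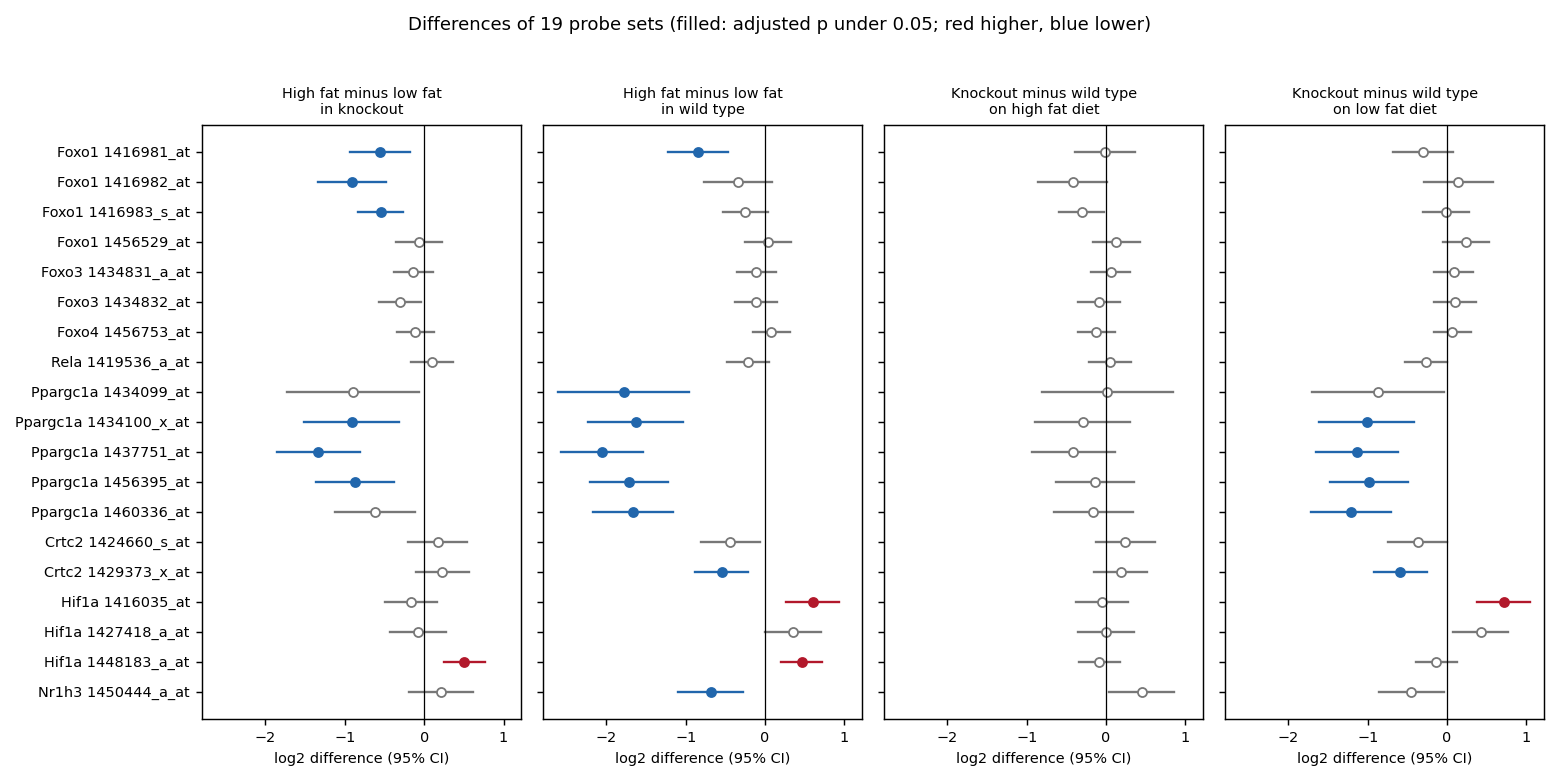
Log2 difference of each tested member probe set in the 4 pairwise comparisons, with points for the difference, filled where called, and bars for its 95% confidence interval. The Ppargc1a probe sets lie farthest below 0 for diet in wild type, at -1.63 to -2.06. For knockout against wild type on high fat diet no probe set is called, with Nr1h3 at 0.45 and Foxo1 1416982_at at -0.42.

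Ppargc1a encodes PGC-1alpha, the coactivator that drives mitochondrial biogenesis and the thermogenic programme of brown and beige fat. All 5 of its probe sets fell with high fat diet in wild type mice. Probe set 1437751_at read 3.35, 4.25, 4.20 and 3.54 in the knockout high fat arrays, against 4.77, 4.93, 5.57 and 5.40 in the knockout low fat arrays. It read 4.11, 4.14, 4.30 and 4.44 in the wild type high fat arrays, against 6.97, 6.21, 6.05 and 5.98 in the wild type low fat arrays. The wild type low fat arrays were the highest, the knockout low fat arrays came next without overlapping them, and both high fat groups lay below these and overlapped each other. High fat diet changed the probe set by -1.33 ± 0.25 (SE) in knockout, or to 0.397 times the low fat level, with an adjusted p of 0.000821. The knockout high fat arrays lay on both sides of the level of 4 needed for testing. Near that level the authors' background correction can affect the size of a fold change. In wild type mice the change was -2.06 ± 0.25, to 0.240 times, with an adjusted p of 1.7e-05. The knockout level on low fat diet was lower than wild type by a difference of -1.13 ± 0.25, with an adjusted p of 0.00485.

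The brightest Ppargc1a probe set, 1434100_x_at, has probes that may also match other transcripts. It read 4.26, 4.73, 4.79 and 4.67 in the knockout high fat arrays, against 5.13, 5.03, 6.20 and 5.75 in the knockout low fat arrays. It read 4.90, 4.64, 5.00 and 5.09 in the wild type high fat arrays, against 7.45, 6.44, 6.16 and 6.09 in the wild type low fat arrays. Diet separated the groups in each genotype, while on low fat diet knockout replicate 3 overlapped the wild type arrays. The diet difference was -0.91 ± 0.28 in knockout and -1.63 ± 0.28 in wild type, with adjusted p-values of 0.0241 and 0.000403. The genotype difference on low fat diet was -1.01 ± 0.28, with an adjusted p of 0.0209, which became 0.0648 without wild type low fat replicate 1, 0.0733 without knockout low fat replicate 1 and 0.0732 without knockout low fat replicate 2. The knockout diet call was lost without knockout high fat replicate 1 (adjusted p = 0.0769) or knockout low fat replicates 3 (0.0909) or 4 (0.0569).

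In knockout mice 3 of the 5 Ppargc1a probe sets passed the test for diet. Probe sets 1460336_at, at -0.62 (adjusted p = 0.0623), and 1434099_at, at -0.90 (adjusted p = 0.0984), did not. Probe set 1460336_at averaged 3.16 ± 0.35 in knockout and 3.32 ± 0.12 in wild type on high fat diet, against 3.78 ± 0.19 in knockout and 4.99 ± 0.60 in wild type on low fat diet (SD, n = 4 each). Probe set 1456395_at averaged 2.93 ± 0.10 in knockout and 3.07 ± 0.30 in wild type on high fat diet, against 3.80 ± 0.20 in knockout and 4.78 ± 0.60 in wild type on low fat diet. Both fell with diet in wild type, by differences of -1.67 ± 0.24 and -1.72 ± 0.23. Both were lower in knockout than in wild type on low fat diet, by -1.21 ± 0.24 and -0.98 ± 0.23. Both reached the level for testing only through the wild type low fat arrays. That filter favours differences from this group, so these calls are no independent support for the other Ppargc1a probe sets. All high fat arrays and most knockout low fat arrays lay under a log2 value of 4 for these probe sets. There the authors' background correction largely sets the size of a fold change. With values floored at 4 the diet differences in wild type were -0.99 for 1460336_at and -0.78 for 1456395_at, both still called, and that of 1456395_at in knockout went to -0.02, no longer called. The fifth probe set, 1434099_at, shares its source sequence with 1434100_x_at and fell by 1.78 ± 0.39 in wild type, with an adjusted p of 0.00234. It averaged 5.35 ± 0.56 in knockout and 6.22 ± 0.95 in wild type on low fat diet, and its genotype difference of -0.87 did not pass the test, with an adjusted p of 0.134.

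The genotype differences of the 5 Ppargc1a probe sets on high fat diet ran from -0.41 to 0.01, with adjusted p-values of 0.303 to 0.987. The 95% interval for 1437751_at was -0.93 to 0.11. The interaction was positive for all 5, between 0.71 and 1.05, and passed the test for none, with adjusted p-values of 0.0547 to 0.315. With values floored at 4 the interaction of 1437751_at was 1.00 and that of 1460336_at 0.98, with adjusted p-values of 0.0363 and 0.0355. The interaction of 1460336_at was also called without knockout high fat replicate 1, knockout low fat replicate 4 or wild type low fat replicates 2 or 4, and that of 1456395_at without wild type low fat replicate 4. Markers of brown adipocytes moved with diet beside Ppargc1a. The summed signal of 6 such markers was 565 to 908 in knockout and 398 to 1098 in wild type on high fat diet, against 1854 to 9354 in knockout and 1438 to 5396 in wild type on low fat diet. Between knockout and wild type on low fat diet 0 of the 6 were called lower and 1, Dio2, was called higher, while Ppargc1a was lower. The part of these cells in the Ppargc1a differences was not tested. All 5 wild type diet calls and all 4 low fat genotype calls of Ppargc1a were kept without the 5 arrays with Tnnt3 at 8 or more. Both counts include 1460336_at and 1456395_at, tested only through the wild type low fat arrays.

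**Figure D2:**
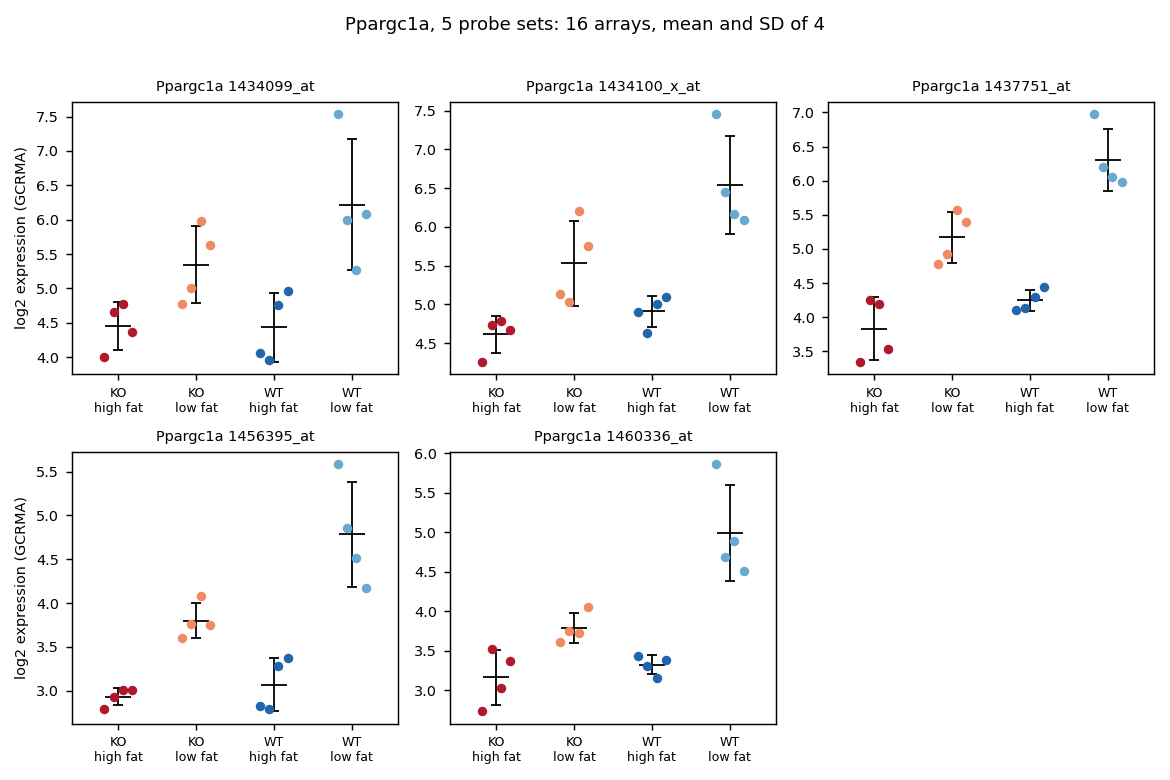
Log2 expression of the 5 Ppargc1a probe sets on each array, grouped from left to right as knockout high fat, knockout low fat, wild type high fat and wild type low fat, with points for arrays and bars for the mean and SD. In the panel of 1437751_at the wild type low fat arrays sit at 5.98 to 6.97, above the knockout low fat arrays at 4.77 to 5.57.

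The promoter windows of Ppargc1a and Hif1a are printed because these genes were called in 3 pairwise comparisons each, and that of Foxo3 as a member with no call. Each window runs from 250 bases before to 50 bases after the RefSeq start, on the gene's strand, in build GRCm38.p6. Capitals mark matches to the letters TGACG (the core of a cyclic AMP response element), ACGTG (a hypoxia response core), GGGA followed after any 4 bases by CC (an NF-kB site) or CACGTG (an E-box), searched on both strands. Ppargc1a lies at chr5:51567676-51567975 on the minus strand, Hif1a at chr12:73907617-73907916 on the plus strand and Foxo3 at chr10:42276646-42276945 on the minus strand.
Ppargc1a: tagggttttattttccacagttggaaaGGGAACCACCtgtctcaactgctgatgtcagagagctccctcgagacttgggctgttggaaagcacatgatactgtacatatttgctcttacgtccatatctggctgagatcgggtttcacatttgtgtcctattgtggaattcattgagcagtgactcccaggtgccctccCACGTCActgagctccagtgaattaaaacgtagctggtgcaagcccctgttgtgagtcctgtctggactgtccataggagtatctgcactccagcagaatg
Hif1a: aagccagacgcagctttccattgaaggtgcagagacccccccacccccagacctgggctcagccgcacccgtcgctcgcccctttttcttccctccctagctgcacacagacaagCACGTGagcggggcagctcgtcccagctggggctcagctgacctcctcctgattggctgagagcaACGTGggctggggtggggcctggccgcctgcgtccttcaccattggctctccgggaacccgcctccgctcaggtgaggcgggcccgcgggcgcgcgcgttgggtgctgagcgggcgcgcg
Foxo3: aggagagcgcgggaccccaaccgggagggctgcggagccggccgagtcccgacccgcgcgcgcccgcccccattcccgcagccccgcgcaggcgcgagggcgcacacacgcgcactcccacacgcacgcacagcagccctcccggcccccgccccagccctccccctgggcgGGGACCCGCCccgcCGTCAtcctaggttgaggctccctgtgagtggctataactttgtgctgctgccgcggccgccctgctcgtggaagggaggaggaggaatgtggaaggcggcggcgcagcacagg

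In the Ppargc1a window a cyclic AMP core on the opposite strand begins at position -49 from the start and overlaps a hypoxia core that begins at -51, and an NF-kB match begins at -223. The Hif1a window has an E-box at -135, which itself holds the hypoxia core on both strands, and a further core at -70. The Foxo3 window holds a cyclic AMP core at -64 and an NF-kB match at -78. Entries were found for 6 of the 8 genes, Nr1h3 with 2 of them, and among the rest only Rela held a match, an NF-kB site at -217. Of 32851 promoters of the same length, 20.8% hold the cyclic AMP core, 19.6% the hypoxia core, 20.7% the NF-kB letters and 7.15% the E-box. The whole cyclic AMP element TGACGTCA, in 1.79% of promoters, and the forkhead letters GTAAACA, in 3.65%, matched none of the 7 windows. A match to these letters is a description of the sequence and not a binding site.

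The other genes tied to each regulator were taken from lists, each gene by its brightest probe set. Over all 12078 genes so represented, 15.2% were called higher and 13% lower for diet in knockout, 20.3% and 14.8% for diet in wild type, 7.87% and 5.93% for knockout on high fat diet, and 11.3% and 6.94% for knockout on low fat diet. The median differences of all these genes were -0.02, 0.04, 0.00 and 0.04 in the same order.

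Among 20 tested genes that PGC-1alpha coactivates or partners with, high fat diet raised 0 and lowered 5 in knockout, with a median difference of -0.25, and raised 1 and lowered 9 in wild type, with a median of -0.36. Among those lowered in knockout were Ucp1, Cidea, Cox8b and Cox7a1, which are also among the 6 brown adipocyte markers, and Ppara. The first 3 of these markers were also lowered in wild type, and the part of brown adipocytes in these counts was not tested. Ppara, the nuclear receptor for fatty acids, changed by -1.87 ± 0.31 in knockout and -2.31 ± 0.31 in wild type. Cidea, which coats lipid droplets in thermogenic fat, changed by -5.50 ± 0.65 in knockout and -3.95 ± 0.65 in wild type. Among others called in wild type were Tfb2m, a mitochondrial transcription factor, at -0.94 ± 0.13, and the related coactivator Ppargc1b, at -1.40 ± 0.27. Between knockout and wild type, 0 of the 20 were called on high fat diet (limma), with a median of 0.02. On low fat diet Tfb2m was lower, at -0.58 ± 0.13, and the nuclear receptor Esrrg higher, at 1.84 ± 0.28, with a median of -0.10 over the list.

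The uncoupling protein gene Ucp1, the effector of heat production in brown fat, read 5.90, 7.23, 4.81 and 6.04 in the knockout high fat arrays, against 9.10, 9.68, 11.12 and 11.84 in the knockout low fat arrays. It read 8.19, 4.74, 4.57 and 6.37 in the wild type high fat arrays, against 10.35, 10.05, 10.27 and 7.80 in the wild type low fat arrays. Its highest arrays were of knockout mice on low fat diet, whereas those of Ppargc1a were of wild type mice on low fat diet. High fat diet changed Ucp1 by -4.44 ± 0.80 in knockout and -3.65 ± 0.80 in wild type.

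Crtc2 encodes a coactivator of CREB that enters the nucleus when its phosphorylation by salt-inducible kinases ends, and through which cyclic AMP raises genes such as Ppargc1a in liver. Probe set 1429373_x_at read 6.91, 6.51, 6.70 and 6.74 in the knockout high fat arrays, against 6.48, 6.58, 6.51 and 6.38 in the knockout low fat arrays. It read 6.67, 6.56, 6.40 and 6.49 in the wild type high fat arrays, against 7.60, 6.86, 6.74 and 7.11 in the wild type low fat arrays. The wild type low fat arrays were the highest and lay above both the wild type high fat and the knockout low fat arrays without overlap. In knockout the diet difference was 0.23, with an adjusted p of 0.301. The diet difference in wild type was -0.55 ± 0.16, with an adjusted p of 0.0133. The genotype difference on low fat diet was -0.59 ± 0.16, with an adjusted p of 0.0166, and the interaction was 0.78 (95% interval 0.30 to 1.25, adjusted p = 0.0348). Without the 5 arrays with Tnnt3 at 8 or more the wild type diet and low fat genotype calls had adjusted p-values of 0.0533 and 0.055. Those arrays include wild type low fat replicates 3 and 4, and the part of the smaller group was not tested.

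All Crtc2 calls rest on 1429373_x_at, whose probes may also match other transcripts. The other Crtc2 probe set, 1424660_s_at, was called in no comparison. It averaged 6.03 ± 0.26 in knockout and 5.79 ± 0.19 in wild type on high fat diet, against 5.86 ± 0.25 in knockout and 6.23 ± 0.31 in wild type on low fat diet. Its diet difference in wild type was -0.44 ± 0.18, with an adjusted p of 0.0614.

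Of 12 genes induced through CREB and CRTC coactivators, high fat diet raised 1 and lowered 3 in knockout, with a median of -0.52, and raised 2 and lowered 5 in wild type, with a median of -0.13. Pck1, an enzyme of glyceroneogenesis, changed by -0.89 ± 0.11 in knockout. The phosphodiesterase Pde4d, which breaks down cyclic AMP, changed by -1.10 ± 0.15 in knockout and -1.14 ± 0.15 in wild type, while the related Pde4b changed by 1.67 ± 0.20 in wild type. The orphan receptor Nr4a3 changed by -3.31 ± 0.24 in wild type, and its interaction was 2.76 ± 0.34, with an adjusted p of 0.000208. Knockout tissue had 1 of the 12 higher and 2 lower than wild type on high fat diet, with Pck1 at -0.59 ± 0.11, and 1 higher and 2 lower on low fat diet, with Nr4a3 at -2.77 ± 0.24. Medians were 0.11 on high fat and 0.07 on low fat diet.

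Of 17 direct inhibitors and kinases that act on the regulators, diet raised 1 and lowered 3 in knockout, with a median of -0.14, and raised 0 and lowered 6 in wild type, with a median of -0.31. The gene raised in knockout was Sik3, whose direction there reversed when its probe sets were averaged. Those lower in wild type included the salt-inducible kinases Sik2, by -0.48 ± 0.12, and Sik3, by -0.58 ± 0.12. The prolyl hydroxylase Egln2, which marks HIF proteins for degradation, changed by -0.80 ± 0.15. Between knockout and wild type 0 of the 17 were called on high fat diet (limma), and 0 were higher and 2 lower on low fat diet, with Sik3 at -0.68 ± 0.12.

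Foxo1 is the main forkhead factor that insulin restrains through Akt, and in adipocytes it controls lipolysis genes. For diet, probe set 1416981_at was called lower in both genotypes, and 1416982_at and 1416983_s_at were called lower in knockout only. No other Foxo1 probe set was called for diet in wild type. Probe sets 1416981_at, 1416982_at and 1416983_s_at share their source sequence. Probe set 1416981_at read 6.88, 7.0, 6.79 and 7.05 in the knockout high fat arrays, against 7.26, 7.48, 7.40 and 7.80 in the knockout low fat arrays. It read 7.01, 6.99, 7.02 and 6.76 in the wild type high fat arrays, against 8.00, 7.29, 8.27 and 7.61 in the wild type low fat arrays. All 8 high fat arrays lay below all 8 low fat arrays, and genotypes overlapped within each diet. The diet difference was -0.55 ± 0.18 in knockout and -0.85 ± 0.18 in wild type, with adjusted p-values of 0.0291 and 0.00172. The knockout call was lost, with adjusted p-values of 0.0558 to 0.0835, without knockout high fat replicate 1 or 3 or knockout low fat replicate 2 or 4.

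The brightest Foxo1 probe set, 1416983_s_at, read 10.88, 10.93, 10.72 and 10.73 in the knockout high fat arrays, against 11.42, 11.32, 11.43 and 11.29 in the knockout low fat arrays. It read 11.52, 11.02, 11.05 and 10.91 in the wild type high fat arrays, against 11.47, 11.18, 11.57 and 11.30 in the wild type low fat arrays. The diet groups were apart in knockout and overlapped in wild type, where replicate 1 of the high fat group was high. The diet difference was -0.55 ± 0.13 in knockout (adjusted p = 0.00642) and -0.25 in wild type (adjusted p = 0.158). Without wild type high fat replicate 1 wild type was called, at -0.38 with an adjusted p of 0.0218. Probe set 1416982_at averaged 8.80 ± 0.38 in knockout and 9.23 ± 0.20 in wild type on high fat diet, against 9.71 ± 0.19 in knockout and 9.57 ± 0.40 in wild type on low fat diet. Its diet difference was -0.91 ± 0.20 in knockout (adjusted p = 0.00363) and -0.34 in wild type (adjusted p = 0.205). None of the 3 had an interaction past the threshold, so the genotypes are not shown to differ in the Foxo1 response. The dim probe set 1456529_at averaged 4.11 ± 0.12 in knockout and 3.98 ± 0.16 in wild type on high fat diet, against 4.18 ± 0.07 in knockout and 3.94 ± 0.29 in wild type on low fat diet, and was called in no comparison.

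Foxo3 and Foxo4, forkhead factors of the same family, were called in no comparison. Foxo3 1434831_a_at averaged 11.36 ± 0.12 in knockout and 11.30 ± 0.13 in wild type on high fat diet, against 11.50 ± 0.18 in knockout and 11.42 ± 0.10 in wild type on low fat diet. Its diet difference in wild type was -0.11, with a 95% interval of -0.36 to 0.13. Foxo3 1434832_at, from the same source sequence, had a diet difference of -0.31 in knockout (95% interval -0.57 to -0.04, adjusted p = 0.0804), and those 2 groups did not overlap. Averaging the 3 Foxo3 probe sets gave a diet difference in wild type of -0.33, which was called (adjusted p = 0.0102). This mean includes 1450236_at, which lay under the level for testing and read 3.04, 3.34, 3.01 and 2.83 in the wild type high fat arrays, against 3.61, 3.72, 3.74 and 4.19 in the wild type low fat arrays. Foxo4 1456753_at averaged 10.86 ± 0.14 in knockout and 10.99 ± 0.15 in wild type on high fat diet, against 10.97 ± 0.06 in knockout and 10.91 ± 0.11 in wild type on low fat diet. Its diet difference in wild type was 0.08, with a 95% interval of -0.15 to 0.31.

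**Figure D3:**
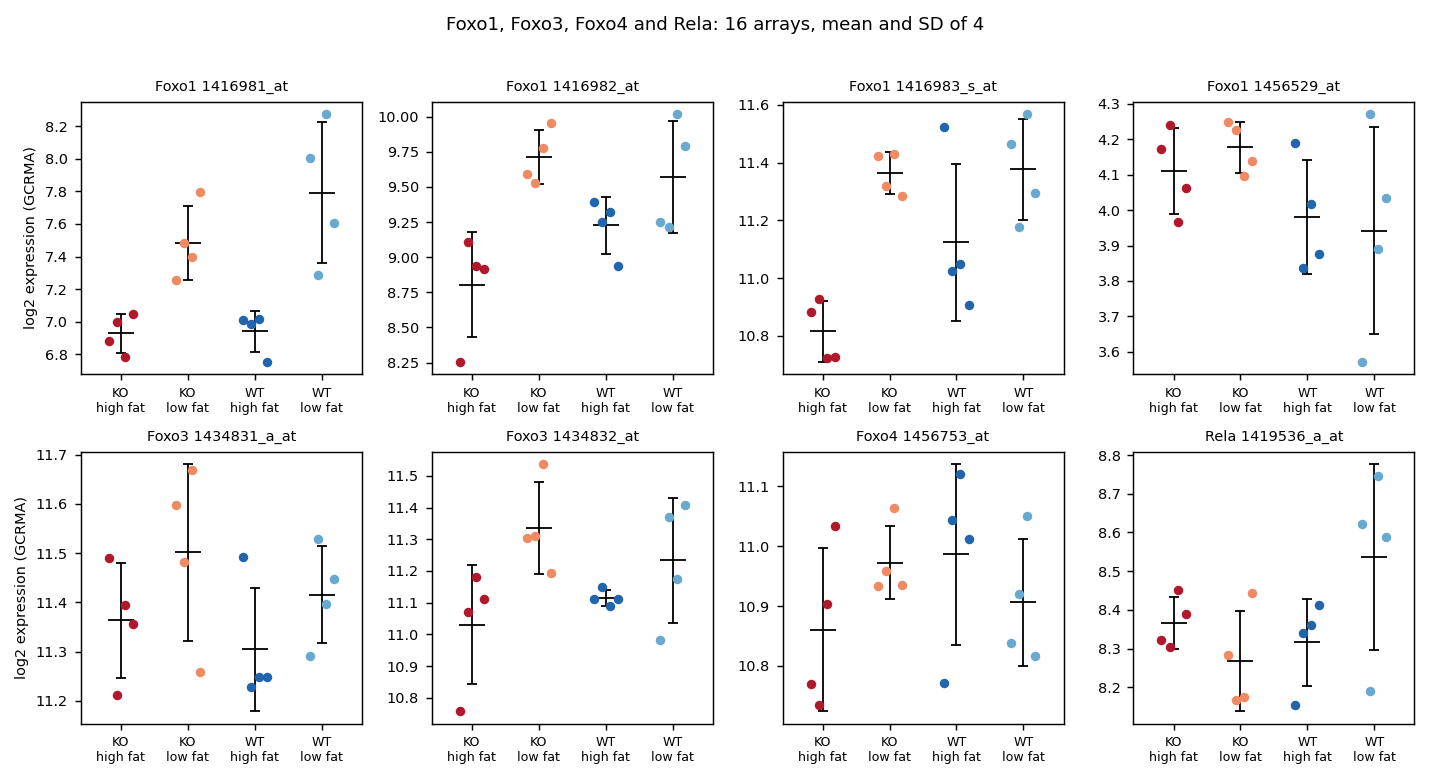
Log2 expression per array of the tested Foxo1, Foxo3, Foxo4 and Rela probe sets, grouped from left to right as knockout high fat, knockout low fat, wild type high fat and wild type low fat, with points for arrays and bars for the mean and SD. The high fat arrays of Foxo1 1416981_at sit at 6.76 to 7.05, below every low fat array.

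Of 20 forkhead target genes tested, high fat diet raised 3 and lowered 2 in knockout, with a median of -0.12, and raised 4 and lowered 8 in wild type, with a median of -0.22. The insulin receptor gene Insr, which FOXO1 induces when insulin is low, changed by -0.63 ± 0.13 in knockout and -1.19 ± 0.13 in wild type. Klf15, a regulator of amino acid and lipid use, changed by -1.13 ± 0.22 in knockout and -1.49 ± 0.22 in wild type. The growth arrest gene Gadd45a changed by 1.18 ± 0.31 in knockout and 2.62 ± 0.31 in wild type. Knockout tissue had 0 of the 20 higher and 1 lower than wild type on high fat diet, with a median of -0.13. It had 2 higher and 7 lower on low fat diet, with a median of -0.17. There Insr was lower by a difference of -0.84 ± 0.13 and Irs2, an adaptor of the insulin receptor, by -0.90 ± 0.19. The 3 Foxo1 probe sets that share a source sequence differed between genotypes on low fat diet by -0.31, 0.14 and -0.01, none called. Without wild type low fat replicate 2 the difference of Foxo1 1416981_at was -0.48 and was called (adjusted p = 0.0444).

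Hif1a encodes the oxygen-regulated subunit of HIF-1, which is mostly controlled through protein stability and which rises in adipose tissue and macrophages in obesity. Probe set 1416035_at read 9.72, 9.80, 9.86 and 10 in the knockout high fat arrays, against 9.90, 10.31, 10.08 and 9.76 in the knockout low fat arrays. It read 10.21, 9.82, 9.81 and 9.76 in the wild type high fat arrays, against 8.98, 9.63, 9.22 and 9.37 in the wild type low fat arrays. The wild type low fat arrays were the lowest and overlapped none of the other groups, which overlapped each other. The diet difference was -0.17 in knockout (adjusted p = 0.457) and 0.60 ± 0.16 in wild type, or 1.51-fold, with an adjusted p of 0.00732. Knockout exceeded wild type on low fat diet by 0.71 ± 0.16, or 1.64-fold, with an adjusted p of 0.00516. The interaction was -0.77 (95% interval -1.23 to -0.30, adjusted p = 0.035). Without the 5 arrays with Tnnt3 at 8 or more, neither the wild type diet nor the low fat genotype call was kept, with adjusted p-values of 0.0639 and 0.121. Wild type low fat replicates 3 and 4 were among those left out, and the part of the smaller group in this loss was not tested.

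Another Hif1a probe set, 1448183_a_at, gave a different pattern. It read 10.04, 10.23, 10.12 and 10.28 in the knockout high fat arrays, against 9.45, 9.92, 9.72 and 9.54 in the knockout low fat arrays. It read 10.16, 10.50, 10.17 and 10.18 in the wild type high fat arrays, against 9.85, 9.69, 9.79 and 9.85 in the wild type low fat arrays. High fat arrays lay above low fat arrays in both genotypes, by 0.51 ± 0.12 in knockout (1.42-fold, adjusted p = 0.00575) and 0.46 ± 0.12 in wild type (1.38-fold, adjusted p = 0.00825). Knockout and wild type differed on low fat diet by -0.14 (adjusted p = 0.48). The brightest probe set, 1427418_a_at, averaged 11.66 ± 0.04 in knockout and 11.66 ± 0.27 in wild type on high fat diet, against 11.74 ± 0.14 in knockout and 11.32 ± 0.36 in wild type on low fat diet. It was called in no comparison, but without wild type low fat replicate 2, its highest array in that group at 11.79, it was called for diet in wild type (adjusted p = 0.0152) and for knockout on low fat diet (adjusted p = 0.0123). The Hif1a probe sets thus disagreed on whether knockout raised the transcript on low fat diet. Macrophage markers moved with diet beside Hif1a, with 6 of 10 called higher in knockout and 7 of 10 in wild type, and 2 of 10 were called higher in knockout than in wild type on low fat diet. Their part in the Hif1a differences was not tested.

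Of 19 HIF-1 target genes, high fat diet raised 1 and lowered 6 in knockout, with a median of 0.01, and raised 3 and lowered 6 in wild type, with a median of -0.02. The carbonic anhydrase Car9 changed by 1.65 ± 0.19 in knockout and the vascular growth factor Vegfa by -1.52 ± 0.21. In wild type the prolyl hydroxylase Egln3 changed by -2.35 ± 0.36 and the pyruvate dehydrogenase kinase Pdk1 by -1.02 ± 0.14. Knockout tissue had 1 of the 19 higher than wild type on high fat diet, Car9 at 1.59 ± 0.19, and 3 lower, with Vegfa at -1.21 ± 0.21 and a median of 0.10 over the list. It had 2 higher and 2 lower on low fat diet, with Egln3 at -2.08 ± 0.36 and a median of -0.03.

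Nr1h3 encodes LXR-alpha, the receptor for oxysterols that induces genes of fatty acid synthesis and cholesterol export in fat, liver and macrophages. Its single probe set, 1450444_a_at, read 9.42, 9.31, 9.21 and 9.13 in the knockout high fat arrays, against 8.59, 8.86, 9.12 and 8.71 in the wild type high fat arrays. It read 9.02, 8.83, 9.19 and 9.19 in the knockout low fat arrays, against 9.63, 8.94, 10.09 and 9.37 in the wild type low fat arrays. Wild type low fat arrays were spread widely, and each pair of neighbouring groups overlapped. The knockout high fat arrays all lay above the wild type high fat arrays. In knockout the diet difference was 0.21 (95% interval -0.20 to 0.62, adjusted p = 0.448). High fat diet lowered Nr1h3 in wild type by a difference of -0.69 ± 0.19, to 0.621 times, with an adjusted p of 0.0113, and with overlapping arrays. The interaction was 0.90 (95% interval 0.32 to 1.47, adjusted p = 0.0436). The genotype difference was 0.45 on high fat diet (95% interval 0.04 to 0.86, adjusted p = 0.143) and -0.45 on low fat diet (95% interval -0.86 to -0.04, adjusted p = 0.117), neither called. Without wild type low fat replicate 2 the low fat difference was called, with an adjusted p of 0.0155. Without the 5 arrays with Tnnt3 at 8 or more the wild type diet difference was -0.56, with an adjusted p of 0.0719. Those arrays include wild type low fat replicates 3 and 4, and the part of the smaller group was not tested.

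Of 12 LXR targets tested, high fat diet raised 1 and lowered 3 in knockout, with a median of -0.04, and raised 2 and lowered 3 in wild type, with a median of -0.12. The desaturase gene Scd2 changed by 0.54 ± 0.14 in knockout and 0.92 ± 0.14 in wild type, and fatty acid synthase, Fasn, by -0.82 ± 0.20 in knockout and -1.04 ± 0.20 in wild type. Scd2 was also higher in knockout than in wild type, by 0.68 ± 0.14 on high fat diet and 1.06 ± 0.14 on low fat diet. In all, knockout tissue had 1 of the 12 higher and 1 lower on high fat diet, and 1 higher and 0 lower on low fat diet, with medians of 0.07 and -0.10.

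**Figure D4:**
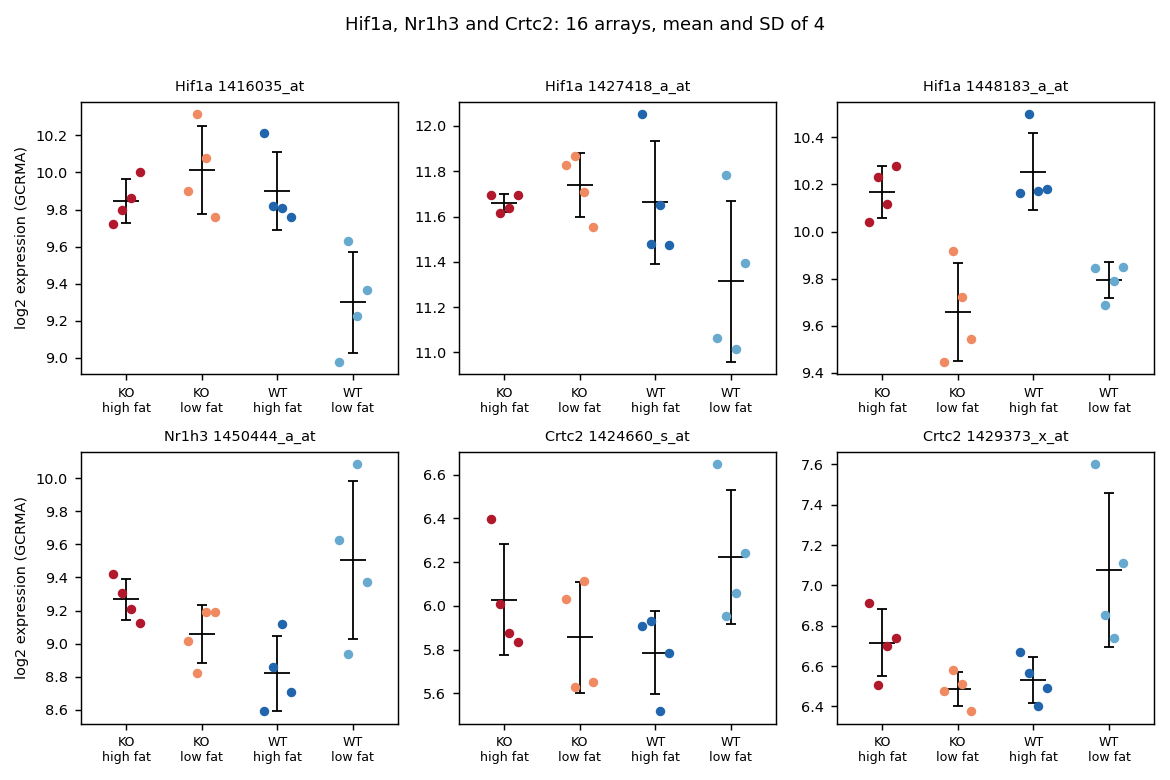
Log2 expression per array of the tested Hif1a, Nr1h3 and Crtc2 probe sets, grouped from left to right as knockout high fat, knockout low fat, wild type high fat and wild type low fat, with points for arrays and bars for the mean and SD. For Hif1a 1416035_at the wild type low fat arrays, at 8.98 to 9.63, lie below the other groups.

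Rela encodes p65, the transactivating subunit of NF-kB. Its probe set 1419536_a_at read 8.32, 8.30, 8.45 and 8.39 in the knockout high fat arrays, against 8.28, 8.17, 8.17 and 8.44 in the knockout low fat arrays. It read 8.15, 8.34, 8.36 and 8.41 in the wild type high fat arrays, against 8.62, 8.19, 8.75 and 8.59 in the wild type low fat arrays. Wild type low fat replicate 2 lay apart from the rest of its group, near the levels of the other groups. Rela was called in no comparison, and the diet difference in wild type was -0.22 (95% interval -0.48 to 0.04, adjusted p = 0.182). Without wild type low fat replicate 2 it was called lower with diet in wild type (adjusted p = 0.0266) and lower in knockout on low fat diet (adjusted p = 0.0217).

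Of 14 NF-kB targets tested, high fat diet raised 7 and lowered 0 in knockout, with a median of 0.51, and raised 7 and lowered 1 in wild type, with a median of 0.63. The monocyte chemokine gene Ccl2 changed by 3.02 ± 0.38 in knockout and 1.80 ± 0.38 in wild type. Nfkbie, an inhibitor that holds NF-kB in the cytoplasm, changed by 1.21 ± 0.20 in knockout and 1.40 ± 0.20 in wild type, and Tnfaip3, which ends NF-kB signalling, by 1.53 ± 0.16 in wild type. A single target was higher in knockout than in wild type on high fat diet, Ccl2 at 1.24 ± 0.38, a call lost in 11 of 29 alternative analyses. A single target was higher on low fat diet, Tnfaip3 at 1.08 ± 0.16. Medians were 0.15 on high fat and 0.22 on low fat diet, and 0 targets were lower on either (limma). Macrophage markers were called higher in the same diet comparisons, in the counts given above, and in 4 of 10 in knockout on high fat diet, and their part was not tested.

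For Trp53, not analysed here, target genes were measured. Of 17 p53 targets, high fat diet raised 3 and lowered 0 in knockout, with a median of 0.23, and raised 9 and lowered 2 in wild type, with a median of 0.56. In that wild type comparison 7 of 10 macrophage and 3 of 6 progenitor and fibroblast markers were also called higher, and their part was not tested. The kinase gene Plk2 changed by 2.16 ± 0.33 in knockout and 1.78 ± 0.33 in wild type, and the TNF receptor family gene Eda2r by 2.05 ± 0.33 in wild type. Knockout tissue had 1 of the 17 higher than wild type on high fat diet, the cell cycle inhibitor Cdkn1a at 0.93 ± 0.21, and 2 lower, with a median of 0.07. On low fat diet 3 were higher, among them Phlda3, an Akt repressor, at 1.59 ± 0.24, and 1 was lower, with a median of 0.35.

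Ncor1 is not analysed here either. Of 6 genes of the NCoR corepressor complex and of receptors that recruit it, high fat diet lowered 2 in knockout, with a median of -0.05, and 3 in wild type, with a median of -0.46, and raised 0 in both. The heme receptor gene Nr1d1, a clock repressor that works through NCoR, changed by -1.83 ± 0.26 in knockout and -1.98 ± 0.26 in wild type. It was lower in knockout than in wild type by a difference of -1.14 ± 0.26 on high fat diet and -1.29 ± 0.26 on low fat diet. In all, knockout tissue had 1 of the 6 lower on high fat and 2 lower on low fat diet.

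Genes that control SIRT1 or oppose it were counted in the same way. Over all genes, 15.2% were called higher and 13% lower for diet in knockout, and 20.3% and 14.8% in wild type. For knockout against wild type these shares were 7.87% and 5.93% on high fat diet and 11.3% and 6.94% on low fat diet. The short lists below were not tested against these shares. Of 7 tested for SIRT1 and its regulators, high fat diet raised 1 and lowered 0 in knockout, with a median of -0.07, and raised 1 and lowered 1 in wild type, with a median of -0.30. In wild type the SIRT1 repressor Hic1 changed by 1.16 ± 0.22 and Nampt, the enzyme that recycles NAD, by -0.73 ± 0.19. Between genotypes 1 of the 7 was lower on high fat diet, and 0 were called on low fat diet (limma). Of 5 acetyltransferases, diet changed 0 in knockout and lowered 1 in wild type, and between genotypes 1 was higher on high fat diet and 0 were called on low fat diet (limma). Of 13 related family members and dimer partners, diet raised 1 and lowered 2 in knockout, and raised 0 and lowered 3 in wild type.

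**Figure D5:**
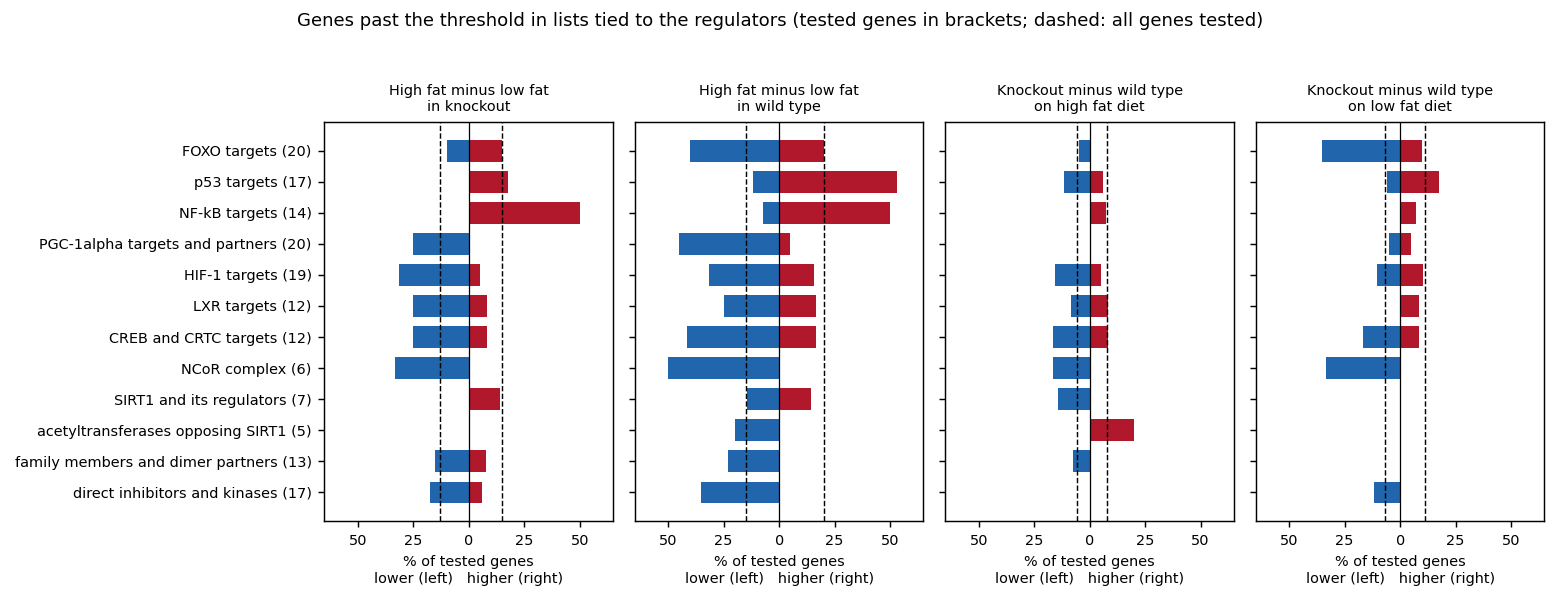
Percentage of the tested genes of each list that were called higher (right of 0) and lower (left of 0) in the 4 pairwise comparisons, with dashed lines for all genes tested. For p53 targets with diet in wild type, 9 of 17 were higher and 2 lower, and for PGC-1alpha targets and partners 1 was higher and 9 were lower.

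The genes whose profile over the 16 arrays lay nearest to each called member were found from the mean absolute difference of centred log2 values, between brightest probe sets. For Ppargc1a the nearest were Eri2 at 0.214, Fbxo44 at 0.219 and Zfp612 at 0.229, where Ppargc1a itself deviated from its mean by 0.715 on average. For Foxo1 they were Atpaf1 at 0.0955, Lmbr1 at 0.0981 and Gpd1l at 0.1, and for Hif1a they were Vav2 at 0.0774, Cav1 at 0.0780 and D830012I24Rik at 0.0786. The brightest Hif1a probe set, 1427418_a_at, was itself called in no comparison. For Nr1h3 the nearest were Dnttip2 at 0.117, Haus4 at 0.129 and Ess2 at 0.137, and for Crtc2 they were Apba3 at 0.106, Tmem131 at 0.127 and Scaf4 at 0.128. The members' own mean deviations were 0.244 for Foxo1, 0.199 for Hif1a, 0.264 for Nr1h3 and 0.218 for Crtc2.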

How the data were processed

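White adipose RNA (5 ug per sample) was labelled for Affymetrix mouse arrays, per the labels' protocols. The authors deposited 1 log2 value per probe set, computed with GCRMA 2.20.0 under R 2.11.1 according to the submitters' processing notes. Batches and filters before deposit are not known here. No arrays held identical values, and values ran from 0.594 to 14.2. The number of arrays limits the precision.

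Samples were grouped by their labels. With limma 3.58.1 (R 4.3.3) a mean per group was fitted to all 16 arrays, and contrasts were tested two-sided with moderated variances (residual degrees of freedom 12, prior 4.32). The p-values were adjusted by Benjamini-Hochberg over 25560 probe sets, those reading 4 or above in no fewer than 4 arrays. Of 45037 probe sets, 34945 carried 1 symbol, 932 several and 9160 none. A Foxo3 probe set shared with another gene was left out. The unit is the probe set, since a gene's probe sets can disagree. All members are named, and from each list some of the 3 genes with the smallest p among those past the threshold. Ucp1 by array was chosen after its values were seen. Likeness neighbours are the 3 nearest genes. The pipeline was tested on simulated data. The members and lists were chosen with earlier results of these data known. Promoter sequences come from RefSeq, build GRCm38.p6.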

Additional observations from a re-analysis of the deposited data

Results flagged for a closer look

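In 6 of 88 sets of 4 arrays of the same group, a single array stood apart from the other 3 by a gap above Dixon's 95% critical value for its share of the range, which chance flags in about 1 of 20 sets. Wild type high fat replicate 4 read 6.76 for Foxo1 1416981_at, where the others read 6.99 to 7.02. Wild type high fat replicate 1 read 11.49 for Foxo3 1434831_a_at, where the others read 11.23 to 11.25, and 10.21 for Hif1a 1416035_at, where the others read 9.76 to 9.82. Wild type high fat replicate 2 read 10.50 for Hif1a 1448183_a_at, where the others read 10.16 to 10.18. Wild type low fat replicate 2 read 3.33 for Foxo4 1422149_at, where the others read 2.78 to 2.85, and knockout low fat replicate 2 read 4.01 for Hif1a 1431981_at, where the others read 3.22 to 3.35.

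The interaction test called 3 of the 19 tested member probe sets, where 11.3% of all tested probe sets were called. None of these was called at a threshold of 0.01 (limma) or without the 5 arrays with Tnnt3 at 8 or more. The diet effect in knockout minus that in wild type was -0.77 for Hif1a 1416035_at, 0.90 for Nr1h3 1450444_a_at and 0.78 for Crtc2 1429373_x_at on the log2 scale.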

How the results depend on the processing

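Across 29 alternative analyses, 16 of which left out an array, the 26 called member results gave 712 values, of which 643 kept their direction and call, 69 kept only the direction and 0 reversed. With each array left out in turn, member probe sets called numbered 5 to 9 for diet in knockout (7 with all arrays), 10 to 13 for diet in wild type (10), 0 for knockout on high fat diet (limma), 5 to 10 for knockout on low fat diet (6, and 10 without wild type low fat replicate 2) and 0 to 4 for the interaction (3). Without the 5 arrays with the muscle gene Tnnt3 at 8 or more, 6 probe sets were called for diet in wild type and 0 for the interaction (limma), with fewer arrays in the fit. A threshold of 0.01 left 4 for diet in knockout and 0 for the interaction (limma). With values floored at 4, 5 interactions were called. Fitting only the groups compared called 1 probe set between genotypes on high fat diet, of Nr1h3, and array weights called 1, of Foxo1. Averaging each gene's probe sets called 5 genes for diet in wild type, against 3 by the brightest. The cause of these shifts was not tested, except where the number of arrays or the threshold sets them. Of 3307 values of list genes, 2970 kept their call and direction and 1 reversed, Sik3 for diet in knockout, at -0.015 with averaged probe sets.

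The labels' replicate numbers are shared between groups but showed no consistent pairing. Deviations from the group means correlated at -0.273 to 0.202 in the 24 pairs with equal numbers, with 8 over 0.1, and 2 of 16 arrays lay closest to an array of their own number. Replicate 1 of knockout high fat correlated with replicate 1 of the other groups at 0.198 to 0.202. Replicate 1 of wild type low fat correlated with that of knockout low fat at -0.081 and wild type high fat at -0.005. With the replicate number as a block, 7 member probe sets were called for diet in knockout, 11 for diet in wild type, 0 for knockout on high fat diet, 6 for knockout on low fat diet and 2 for the interaction (limma), with Hif1a 1416035_at at -0.77 and an adjusted p of 0.0505.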
